A study of Mus musculus with 14 samples.

Results

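The TGF-beta and BMP signalling genes described here are Ltbp3, Tgfb1, Tgfbr1, Tgfbr2, Bmpr1a, Bmpr2, Smad2, Smad3, Smad4 and Smad7, 10 of the 18194 genes measured. They were chosen by symbol, with earlier results of these data known. Each was read from the brightest probe set whose platform annotation names that gene alone. The cells were bone marrow LSK cells, which carry Kit and Sca1 but no lineage antigens and include the hematopoietic stem cells and multipotent progenitors. They came from hCD34 x H2BGFP double transgenic mice on a C57BL/6 background, in which a human CD34 promoter drives, through a tetracycline transactivator, a GFP-tagged histone H2B. Every group was treated alike: drinking water with doxycycline (1 mg/ml), given over 12 weeks from an age of 6 to 8 weeks, shut off the label, and each later division diluted it. Cells were sorted by remaining label into 5 ranked levels, from GFP0 (most diluted) to GFP4 (retained), with about 1 to 2 divisions between neighbours. The label is made only where the CD34 promoter is active, so its level also depends on that promoter. There were 2 arrays each of GFP0 and GFP3, 3 each of GFP1 and GFP2, and 4 of GFP4. They are called biological replicates in the labels, with no animal or pool named, and the p-values cover only the spread among the arrays, which may be technical in part.

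TGF-beta ligands are secreted in a latent complex, held by latent TGF-beta binding proteins until the ligand is released. A free ligand brings together type II and type I receptor kinases, and the type I receptor then phosphorylates receptor-regulated Smads. TGF-beta receptors act on Smad2 and Smad3, and BMP receptors on Smad1, Smad5 and Smad9. These pair with Smad4 and enter the nucleus, while Smad7 is induced by the pathway and blocks it at the receptor. In bone marrow TGF-beta is known as a signal that holds hematopoietic stem cells in quiescence.

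Array medians lay between 6.96 and 7.18 on the log2 scale and interquartile ranges between 2.09 and 2.73, narrowest in GFP0 replicate 1 and GFP4 replicate 1 (2.21). The number of arrays limits the precision. Gapdh signal at the 3 prime end exceeded that at the 5 prime end, a measure of RNA integrity and labelling. The mean excess was 5.15 in GFP0 (SD 0.44, n = 2), 5.53 in GFP1 (SD 0.86, n = 3) and 5.63 in GFP2 (SD 0.19, n = 3). It was 6.34 in GFP3 (SD 0.34, n = 2) and 5.80 in GFP4 (SD 0.54, n = 4). For Actb the means by rising level were 4.45, 3.96, 3.71, 4.10 and 4.64. Of the 2 surface markers that define LSK cells, Kit lay above the table median of 7.03 on average (9.07), and the gene of Sca1 was not read, having no probe set of its own. Among 5 lineage markers measured none passed the slope test. In samples of sorted cells, fewer cells of a type and less RNA per cell cannot be told apart.

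All values below are log2 expression, and a slope is the change in log2 expression per GFP level. Across the 5 levels, Ltbp3 and Smad3 rose with retained label, and the other 8 members did not pass (limma, Benjamini-Hochberg adjusted p under 0.05 over all 18194 genes). Ltbp3 encodes a latent TGF-beta binding protein and Smad3 a receptor-regulated Smad of the TGF-beta branch. By the same test 3.35% of all genes passed, 2.28% upwards and 1.07% downwards. The median slope of the members was 0.16, with 8 positive and 2 negative, beside a median of -0.01 over all genes. In GFP4 against GFP0 1 member passed, Ltbp3, beside 1.68% of all genes. No member fell in either comparison.

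**Figure D1:**
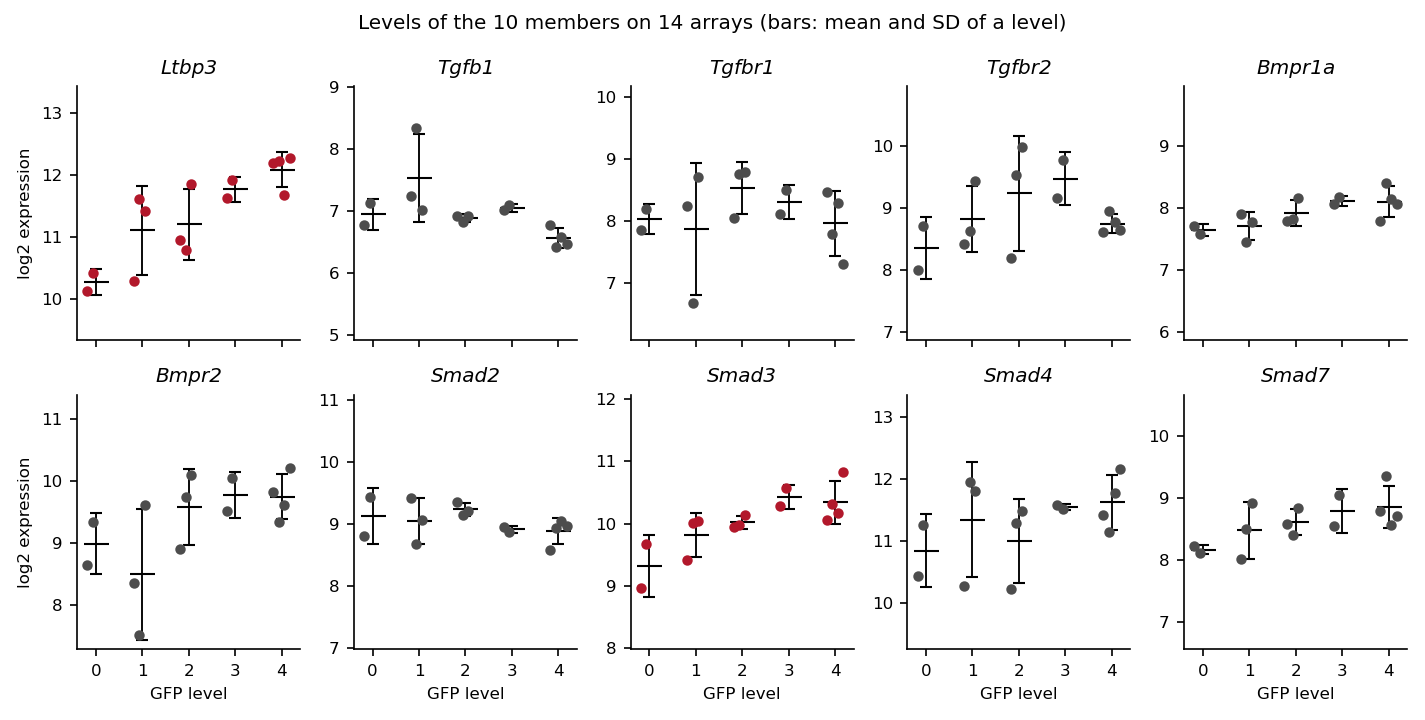
Log2 expression of the 10 members (y axis) at the 5 GFP levels (x axis). Each point is 1 of 14 arrays, and bars give the mean and SD of a level; every panel spans the same height. Ltbp3 and Smad3, in red, passed the slope test; Ltbp3 had its 2 lowest group means at GFP0 (10.28) and GFP1 (11.11) and its highest at GFP4 (12.09).

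Ltbp3 measured 10.13 and 10.43 on the 2 GFP0 arrays and 10.29, 11.62 and 11.43 on the 3 GFP1 arrays. It measured 10.96, 10.80 and 11.87 in GFP2 and 11.63 and 11.92 in GFP3. In GFP4 it measured 12.19, 12.23, 11.68 and 12.27. All GFP4 and GFP3 arrays lay above every GFP0 and GFP1 array, while GFP4 overlapped GFP3 and GFP2, and GFP1 replicate 1 fell among the GFP0 values. The group means climbed in order, beginning with GFP0 at 10.28 ± 0.21 (SD, n = 2), through 11.11 ± 0.72 (SD, n = 3), 11.21 ± 0.58 (SD, n = 3) and 11.77 ± 0.21 (SD, n = 2) to 12.09 ± 0.28 (SD, n = 4). The slope was 0.43 ± 0.08 (SE, adjusted p = 0.0167), the 139th highest of all genes. GFP4 exceeded GFP0 by 1.81 ± 0.37 (SE, adjusted p = 0.03), a 3.51-fold difference, and GFP1 by 0.98 ± 0.32 (SE, adjusted p = 0.19). None of its single steps between neighbouring levels passed; the steps were 0.83, 0.09, 0.56 and 0.32 from GFP0 upwards. The slope no longer passed without GFP0 replicate 1 (0.40, adjusted p = 0.106), GFP0 replicate 2 (0.46, adjusted p = 0.0506) or GFP3 replicate 2 (0.41, adjusted p = 0.0605). The GFP4 to GFP0 difference no longer passed without GFP0 replicate 1 (adjusted p = 0.192), GFP0 replicate 2 (adjusted p = 0.0787) or GFP4 replicate 4 (adjusted p = 0.0749).

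Tgfb1 encodes the TGF-beta 1 ligand that such binding proteins hold. It measured 6.77 and 7.12 in GFP0, 7.24, 8.34 and 7.02 in GFP1, and 6.91, 6.82 and 6.92 in GFP2. In GFP3 it measured 7.01 and 7.09, and in GFP4 6.77, 6.42, 6.58 and 6.47. Every GFP4 array lay below every array of GFP1, GFP2 and GFP3, whereas GFP4 and GFP0 overlapped, and GFP1 replicate 2 stood highest of the 14. The slope of -0.13 ± 0.07 (SE, adjusted p = 0.373) did not pass, nor did the difference between GFP4 and GFP1 (-0.97 ± 0.26, SE, adjusted p = 0.0979), which ran from 7.53 ± 0.71 (SD, n = 3) to 6.56 ± 0.16 (SD, n = 4). Without GFP1 replicate 3 that difference was -1.23 ± 0.26 (SE, adjusted p = 0.0432 in limma). The high GFP1 replicate 2 stayed in that fit, and the difference passed with no other single array left out. On 10 of 14 arrays the value lay below the table median, and no detection calls come with these values, so the Tgfb1 signal is dim. The other Tgfb1 probe set was nearly as bright (mean 6.86 beside 6.96), yet the pair correlated weakly over the arrays (r = 0.12). It changed by only -0.04 per level. Its GFP4 mean of 6.90 lay close to its GFP0 mean of 6.93 and not below its mean over all arrays. The low GFP4 values of Tgfb1 thus rest on 1 probe set.

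The 250 bases before the RefSeq transcription start are shown for Ltbp3 and Smad3, the pair that rose, and for Tgfb1, the member with the lowest slope. They come from RefSeq on build GRCm38.p6, 5′ to 3′ on the strand of the gene. Capitals mark CAGAC, or GTCTG on the other strand, the core of the element that Smad3 and Smad4 are known to bind.
Ltbp3, chr19:5740650-5740899 (+ strand): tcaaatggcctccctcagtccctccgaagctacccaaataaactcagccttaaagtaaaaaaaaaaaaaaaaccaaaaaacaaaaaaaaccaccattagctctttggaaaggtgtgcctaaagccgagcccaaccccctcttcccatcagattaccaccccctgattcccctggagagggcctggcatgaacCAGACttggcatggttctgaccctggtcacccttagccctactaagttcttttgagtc
Smad3, chr9:63757995-63758244 (- strand): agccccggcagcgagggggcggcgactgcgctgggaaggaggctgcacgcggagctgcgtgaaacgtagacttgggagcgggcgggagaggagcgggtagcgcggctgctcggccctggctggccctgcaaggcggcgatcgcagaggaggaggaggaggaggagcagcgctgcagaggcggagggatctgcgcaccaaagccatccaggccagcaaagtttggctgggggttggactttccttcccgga
Tgfb1, chr7:25686752-25687001 (+ strand): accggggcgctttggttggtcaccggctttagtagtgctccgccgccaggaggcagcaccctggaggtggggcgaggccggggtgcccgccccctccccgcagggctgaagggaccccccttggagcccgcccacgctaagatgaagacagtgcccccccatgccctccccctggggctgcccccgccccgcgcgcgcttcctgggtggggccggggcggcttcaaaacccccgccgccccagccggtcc
The Ltbp3 window held 1 match, 58 bases before the start, and those of Smad3 and Tgfb1 held none. Among the other members the motif was in 1 of the 2 windows of Tgfbr1, 203 bases before the start, and in that of Tgfbr2, 160 bases before it, and neither of these genes passed the slope test. This motif is short, and 42.2% of 32851 promoter windows of that length in the table held it. GGCGCC, the GC-rich element known from BMP target genes and its own reverse complement, was in none of these 3 windows, and in 9.59% of all windows. It was found in 1 window each of Bmpr1a, Bmpr2 and Tgfbr1. Tgfbr1 thus held both motifs, each in a different one of its 2 windows. The 3 windows also differed in base composition: G and C made up 47.2% of the Ltbp3 window, 69.2% of that of Smad3 and 75.2% of that of Tgfb1, beside a median of 52.4% over all windows. Promoter entries matched 7 of the 10 members by symbol.

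None of the 4 receptors passed a test with all arrays in the fit. Tgfbr2, the type II receptor that binds TGF-beta, lay between 8.00 and 9.98 over the arrays. Its means by rising level were 8.35, 8.82, 9.23, 9.47 and 8.74, with SDs of 0.50, 0.53, 0.93, 0.43 and 0.15. The means were thus highest at GFP3, and the 2 GFP3 arrays lay above all 4 GFP4 arrays, but the step between them did not pass (-0.73 ± 0.42, SE, adjusted p = 0.888). Its slope was 0.14 ± 0.10 (SE, adjusted p = 0.505). Tgfbr1, the type I TGF-beta receptor kinase, had a slope of 0.03 ± 0.11 (SE, adjusted p = 0.923). Its 95% interval ran from -0.20 to 0.26 per level, so both a fall and a rise within these bounds were compatible with the data. The lowest of its values, 6.68, came from GFP1 replicate 2, and the other 13 lay between 7.31 and 8.79.

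Bmpr2, the type II BMP receptor, measured 8.65 and 9.34 in GFP0, 8.37, 7.52 and 9.62 in GFP1, and 8.91, 9.75 and 10.10 in GFP2. It measured 9.52 and 10.05 in GFP3 and 9.83, 9.35, 9.61 and 10.22 in GFP4. The GFP3 and GFP4 arrays all lay above both GFP0 arrays, while GFP1 spread from 7.52 to 9.62 and overlapped GFP4 through its replicate 3. The slope of 0.28 ± 0.11 (SE) was larger than that of Smad3, but its arrays of one level differed more (residual SD 0.65 against 0.32), and it did not pass (adjusted p = 0.213). GFP4 exceeded GFP1 by 1.25 ± 0.43 (SE, adjusted p = 0.204). Without GFP1 replicate 3 that difference was 1.81 ± 0.37 (SE, adjusted p = 0.0369), so 1 array decided this call.

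Bmpr1a, a type I BMP receptor, lay in a narrow range from 7.45 to 8.40. Its means by rising level were 7.64, 7.71, 7.92, 8.11 and 8.10, with SDs of 0.10, 0.23, 0.21, 0.08 and 0.25. The 4 GFP4 arrays, between 7.79 and 8.40, all lay above the GFP0 arrays at 7.71 and 7.57. The slope was 0.13 ± 0.05 (SE, unadjusted p = 0.0135 in limma, adjusted p = 0.154) and did not pass. Over all genes 3040 had an unadjusted p under 0.05 for the slope, and 5 of the 10 members did.

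Smad3 measured 8.96 and 9.67 in GFP0 and 9.41, 10.00 and 10.04 in GFP1. It measured 9.95, 9.97 and 10.14 in GFP2 and 10.28 and 10.56 in GFP3. In GFP4 it measured 10.05, 10.32, 10.17 and 10.84. The GFP3 arrays lay above every array of GFP0, GFP1 and GFP2, and the GFP4 arrays above every array of GFP0 and GFP1, while GFP4 overlapped both GFP2 and GFP3. Group means were 9.31 ± 0.50 (SD, n = 2), 9.82 ± 0.35 (SD, n = 3), 10.02 ± 0.11 (SD, n = 3), 10.42 ± 0.20 (SD, n = 2) and 10.34 ± 0.35 (SD, n = 4). The last step, from GFP3 to GFP4, was -0.08 ± 0.27 (SE), so the means were ordered only as far as GFP3. The slope of 0.27 ± 0.06 (SE, adjusted p = 0.0329) passed. The difference of 1.03 ± 0.27 between GFP4 and GFP0 (SE, adjusted p = 0.0742), a 2.04-fold ratio, did not. The slope no longer passed without GFP0 replicate 1 (0.20, adjusted p = 0.207), GFP2 replicate 2 (0.27, adjusted p = 0.0501), GFP3 replicate 1 (0.28, adjusted p = 0.0532), GFP3 replicate 2 (0.25, adjusted p = 0.108) or GFP4 replicate 4 (0.23, adjusted p = 0.066). GFP0 replicate 1 held the lowest Smad3 value and GFP4 replicate 4 the highest.

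Smad2, the other receptor-regulated Smad of the TGF-beta branch, had a slope of -0.06 ± 0.05 (SE, adjusted p = 0.631). Its means stayed between 8.88 and 9.23, and all 14 values lay between 8.58 and 9.44. The 95% interval of the GFP4 to GFP0 difference ran from -0.75 to 0.27. Whether the slopes of Smad2 and Smad3 differ was not tested. Smad4, the common partner, had a GFP0 mean of 10.85 ± 0.59 (SD, n = 2) and a GFP4 mean of 11.63 ± 0.44 (SD, n = 4), and its slope was 0.18 ± 0.11 (SE, adjusted p = 0.453). Arrays of GFP1 ran from 10.28 to 11.95, as wide as nearly the whole range of 10.23 to 12.17, and GFP4 overlapped every other level. Both GFP3 arrays, at 11.59 and 11.52, lay above all arrays of GFP0 and GFP2.

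Smad7, the inhibitory Smad that is itself a target of the pathway, measured 8.22 and 8.11 in GFP0, 8.00, 8.50 and 8.91 in GFP1, and 8.58, 8.40 and 8.83 in GFP2. It measured 8.54 and 9.03 in GFP3 and 8.78, 9.35, 8.56 and 8.70 in GFP4. All arrays of GFP2, GFP3 and GFP4 lay above both GFP0 arrays. The group means rank in level order from 8.16 ± 0.08 (SD, n = 2) to 8.85 ± 0.34 (SD, n = 4), but all neighbouring levels overlapped. The slope of 0.17 ± 0.06 (SE, unadjusted p = 0.018 in limma, adjusted p = 0.18) did not pass, nor did the GFP4 to GFP0 difference of 0.69 ± 0.28 (SE, adjusted p = 0.259).

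**Figure D2:**
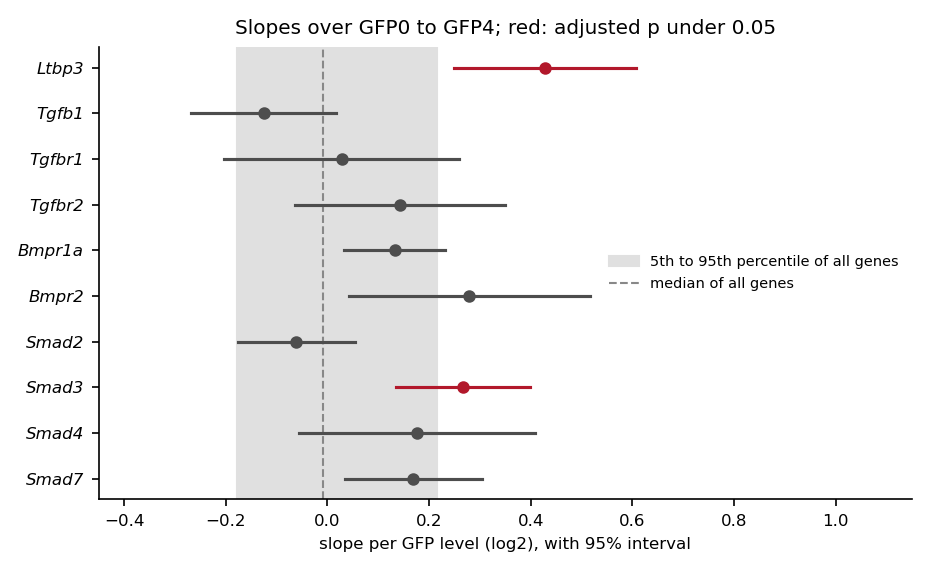
Slope per GFP level of each member (x axis, log2) with its 95% interval. The grey band holds the slopes of all genes between the 5th (-0.18) and 95th (0.22) percentiles and the dashed line is their median. Ltbp3, Smad3 and Bmpr2 lie right of the band, Bmpr2 with an interval from 0.04 to 0.52.

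In 5 of the 10 members, Ltbp3, Smad3, Smad7, Bmpr1a and Bmpr2, all GFP4 arrays lay above all GFP0 arrays, and in none did they all lie below. The share of all genes with GFP4 arrays wholly above was 10.4%, and wholly below 7.75%. Against the 3 GFP1 arrays the GFP4 arrays lay wholly above in Ltbp3 and Smad3 and wholly below in Tgfb1, with background shares of 5.46% and 4.51%. GFP4 is common to both comparisons. In GFP4 against GFP1, 0 members passed in limma, beside 0.989% of all genes, and 5 members had an unadjusted p under 0.05, as did 2308 of the 18194 genes. The test for any difference between levels passed in 0 members and 0.698% of genes, with Ltbp3 at an adjusted p of 0.151, and 3 members had an unadjusted p under 0.05, as did 2331 genes. A departure from a straight line passed in 0 members and in no gene of the table, with 0 members at an unadjusted p under 0.05. At the single steps between neighbours 0 members passed and no gene did. Before adjustment Tgfb1 (-0.65 ± 0.28, SE) and Bmpr2 (1.09 ± 0.46, SE) were under the threshold in limma, both at GFP2 against GFP1, where 493 genes were.

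The 10 members have 31 probe sets, 16 of them below the table median. Tested among all 45101 probe sets, 3 of the 31 passed for the slope, beside 1.92% of all probe sets. Of the 21 probe sets that do not stand for a gene, 13 had a slope of the same sign as the brightest. The 4 probe sets of Ltbp3 had slopes of 0.43, 0.44, 0.48 and 0.77 from the brightest to the dimmest. The 2 brightest passed (adjusted p = 0.0233 and 0.0232), and the others did not (adjusted p = 0.124 and 0.11). These 2 also passed for GFP4 against GFP0 (1.81 and 1.82), where 0.909% of all probe sets did.

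For Smad3 the other probe sets did not repeat the rise. The brightest probe set averaged 10.03 over the arrays and alone passed, with an adjusted p of 0.0443 in this fit. The other 2 averaged 6.88 and 6.40, under the table median, and had slopes of -0.02 and -0.03. Averaging the 3 gave Smad3 a slope of 0.07 ± 0.03 (SE, adjusted p = 0.311). The rise of Smad3 thus rests on 1 probe set. Smad4 had 3 probe sets above the table median, all with slopes between 0.15 and 0.18, and none passed. Those of Bmpr1a other than the brightest all averaged under the median, with slopes from -0.08 to 0.04. The second probe set of Smad2 had a slope of -0.07 and that of Smad7 0.18, close to the brightest of each. Among the probe sets of Tgfbr1, Tgfbr2, Bmpr1a and Bmpr2 both signs occurred.

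**Figure D3:**
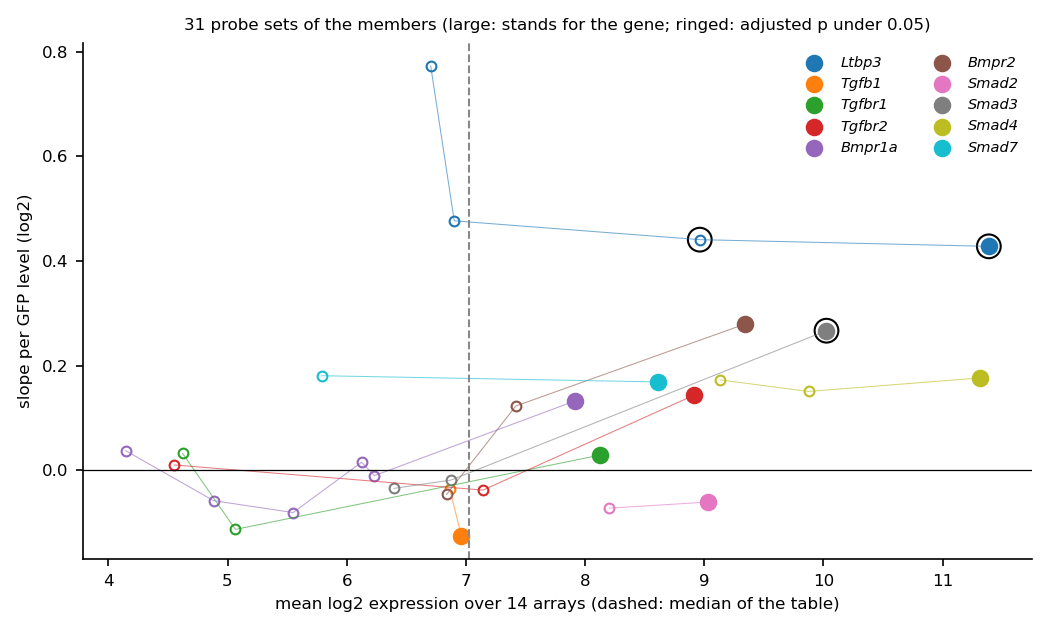
The 31 probe sets of the members, by mean log2 expression over 14 arrays (x axis) and slope per GFP level (y axis). Large points stand for the gene, lines join the probe sets of a gene, and rings mark an adjusted p under 0.05 among all probe sets. All 4 Ltbp3 probe sets lie at 0.43 or higher, while both other Smad3 probe sets lie near 0.

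The other genes of the pathway were read as 7 lists by role, of which 90 of 93 genes were measured. Of these, 3 rose with GFP level, 1 fell and 86 did not pass, with a median slope of 0.02. Those that passed, beside 3.35% of all genes by the same test, were Inha, Fstl1 and Cdkn1c upwards and Cdkn1a downwards. Inha encodes the inhibin alpha subunit, which opposes activin, Fstl1 a secreted follistatin-like protein, and Cdkn1c and Cdkn1a encode inhibitors of cyclin-dependent kinases.

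Inha, 1 of 14 other ligands, had a GFP0 mean of 7.20 ± 0.60 (SD, n = 2) and a GFP4 mean of 9.27 ± 0.72 (SD, n = 4). Its slope was 0.53 ± 0.09 (SE, adjusted p = 0.00977), and it no longer passed without GFP0 replicate 2. The other 13 ligands did not pass the slope test. Bmp4 had the highest slope among them (0.27 ± 0.09, SE, adjusted p = 0.121) and Gdf3 the lowest (-0.18 ± 0.11, SE, adjusted p = 0.449). Lefty1, an antagonist of Nodal, was lower in GFP4 than in GFP0 (-0.94 ± 0.21, SE, adjusted p = 0.045), although GFP3 (8.84 ± 0.13, SD, n = 2) lay above GFP1 and GFP2. Lefty1 stayed past the threshold when GFP1 replicate 2 or GFP4 replicate 1 was left out, and lost it without any one of the other 12 arrays. Of all genes 1.68% passed the comparison of GFP4 with GFP0. In it Inha (2.07 ± 0.41, SE, adjusted p = 0.0264), Fstl1 (2.82 ± 0.39, SE, adjusted p = 0.00534) and Cdkn1c (2.39 ± 0.36, SE, adjusted p = 0.00894) were higher in GFP4. Inha lost this call without GFP0 replicate 1, GFP0 replicate 2 or GFP4 replicate 4, and Cdkn1c without GFP0 replicate 1.

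None of 13 genes of latency and activation passed. In this list Furin, a protease that cleaves the TGF-beta precursor, had the highest slope (0.26 ± 0.10, SE, adjusted p = 0.21), and Mmp9 the lowest (-0.15 ± 0.07, SE, adjusted p = 0.353). The other latent TGF-beta binding proteins had slopes of 0.09 for Ltbp1, -0.02 for Ltbp2 and -0.04 for Ltbp4, and none passed. Among the 10 ligand antagonists Fstl1 rose, from 5.44 ± 0.35 (SD, n = 2) to 8.27 ± 0.26 (SD, n = 4), at 0.78 ± 0.09 per level (SE, adjusted p = 0.00111). On every GFP0 and GFP1 array it lay under the table median, reaching at most 6.64 in GFP1, and in GFP2 it ran from 6.32 to 7.85. Its second probe set had a slope of 0.63 and passed too. The other 9 antagonists had slopes from -0.12 (Bmper) to 0.04 (Fst).

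None of 11 other receptors passed, with slopes from -0.17 for Bambi, a pseudoreceptor that blocks signalling, to 0.22 for Amhr2, the receptor of anti-Mullerian hormone, and 9 of the 11 were positive. None of the 11 other Smads and their partners did either, with slopes from -0.13 for Foxh1 to 0.24 for Zfyve16. The BMP-branch Smads had slopes of 0.22 for Smad1, 0.14 for Smad5 and 0.02 for Smad9. Inhibitors and turnover factors had 0 of 14 past the slope test in limma. Their slopes ran from -0.17 for Dab2 to 0.36 for Tob1.

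Of 17 target genes measured, Cdkn1c rose, with a GFP0 mean of 7.40 ± 0.65 (SD, n = 2), a GFP4 mean of 9.79 ± 0.60 (SD, n = 4) and a slope of 0.65 ± 0.08 (SE, adjusted p = 0.00177). Cdkn1a fell, with means of 9.07 ± 0.47 (SD, n = 2) and 8.13 ± 0.23 (SD, n = 4) at these levels and a slope of -0.25 ± 0.05 (SE, adjusted p = 0.0243), and no longer passed without GFP0 replicate 1 or either GFP3 array. Its second probe set, which averaged 7.61 and so also lay above the table median, had a slope of -0.06 ± 0.04 (SE, adjusted p = 0.537). The Id genes, the classic targets of BMP signals, had slopes of -0.06 for Id1, -0.22 for Id2 and -0.13 for Id3, and none passed. Cited2 had the highest slope of those that did not pass (0.25 ± 0.09, SE, adjusted p = 0.162). The median slope of the targets was 0.01, with 10 positive and 7 negative, beside -0.01 over all genes. Both Cdkn1c and Cdkn1a have inputs other than TGF-beta.

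**Figure D4:**
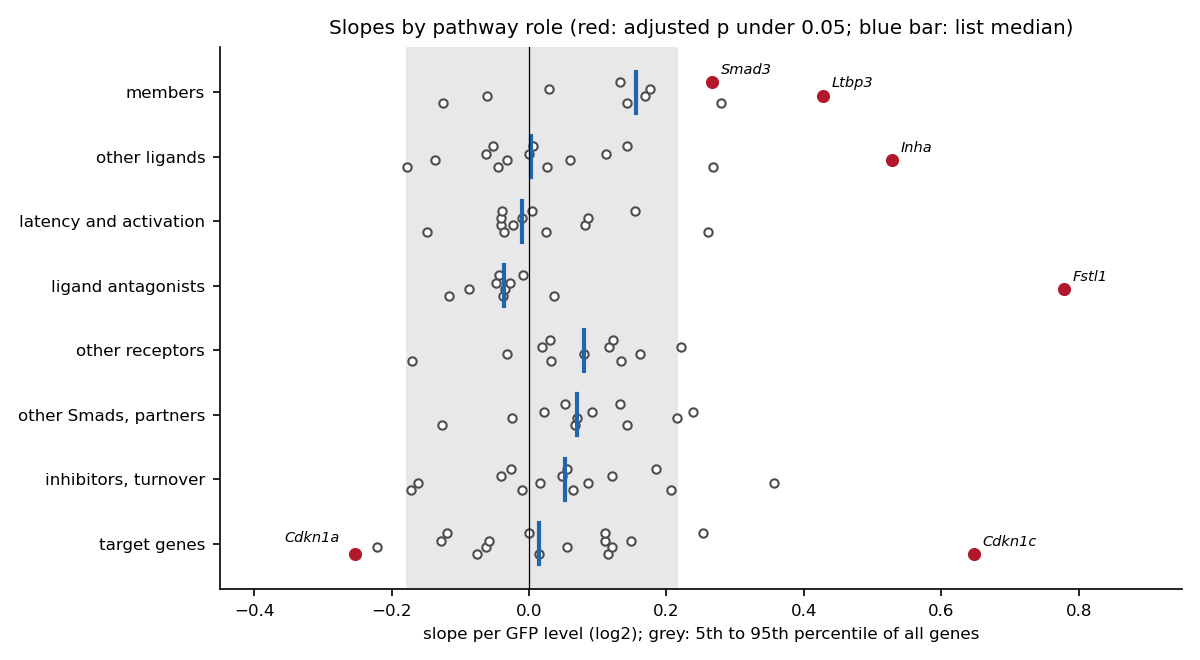
Slopes per GFP level (x axis, log2) of the members and of 7 further lists of pathway genes, 1 point a gene. Red points have an adjusted p under 0.05, blue bars are list medians, and the grey band spans the 5th to 95th percentiles of all genes. The member median is 0.16 and those of the other lists lie between -0.04 and 0.08.

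The genes whose levels ran most like Ltbp3 over the 14 arrays were Slc2a3, Marveld1, Ampd2, Dok1 and Sla2, with Pearson correlations from 0.962 down to 0.950. For Smad3 they were Ppp1r13b, Vdr, Cadps2, Ago1 and Tmem158, from 0.954 down to 0.924. These values describe 14 arrays that share their processing, and the 10 genes were picked from 18194 for likeness. Slopes of these genes lay between 0.20 (Dok1) and 0.64 (Cadps2).

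Some genes known as markers of other cells moved along the same levels. All 11 genes of neutrophils, monocytes and macrophages had a negative slope, with a median of -0.66, and 1 passed, Ltf. The mean of that list lay between 10.39 and 11.60 on the GFP0 arrays, 8.28 and 11.52 in GFP1, 7.95 and 10.94 in GFP2, 8.12 and 8.77 in GFP3, and 7.92 and 10.39 in GFP4. Of 6 mast cell and basophil genes 3 fell, Ms4a2, Cpa3 and Fcer1a, and the list mean lay between 9.31 and 10.07 in GFP0, 7.74 and 10.17 in GFP1, 7.24 and 9.23 in GFP2, 7.07 and 7.12 in GFP3, and reached 9.14 in GFP4. Of 5 erythroid genes Car1 (slope -1.11 ± 0.28, SE, adjusted p = 0.0496) and Klf1 (-0.70 ± 0.16, SE, adjusted p = 0.0362) fell, and the list mean lay between 7.96 and 9.06 in GFP0, 7.12 and 8.57 in GFP1, 6.71 and 7.77 in GFP2, 6.83 and 6.86 in GFP3, and 6.69 and 7.41 in GFP4. Among 6 B cell genes Vpreb1, part of the surrogate light chain of B cell precursors, fell (-0.80 ± 0.15, SE, adjusted p = 0.0159), and the list mean lay between 7.67 and 8.81 in GFP0 and 7.15 and 7.52 in GFP4. Among 6 T and NK cell genes Nkg7, a granule protein of cytotoxic cells, fell (-0.81 ± 0.18, SE, adjusted p = 0.0287 in limma). The list mean lay between 7.72 and 8.59 in GFP0 and 6.94 and 7.54 in GFP4. The median slope was -0.14 for the erythroid list, with 4 negative and 1 positive, -0.06 for the B cell list and -0.10 for the T and NK cell list. No other gene of these lists passed the slope test. In GFP4 against GFP0 Ltf (-2.99 ± 0.61, SE, adjusted p = 0.0304) and Vpreb1 (-3.55 ± 0.68, SE, adjusted p = 0.0216) were lower. Whether these transcripts came from other cells or from the LSK cells was not tested. Any link to the rises of Ltbp3 and Smad3 was not tested either. Megakaryocytes and platelets, known as a rich source of TGF-beta 1, had 0 of 8 markers past the slope test in limma. Their slopes, 4 positive and 4 negative, ran from -0.38 for Gp1bb to 0.60 for Vwf. The list mean lay between 7.63 and 8.92 over all arrays, with both ends in GFP0, and between 8.07 and 8.60 in GFP4. Of 10 endothelial and stromal markers 0 passed and 8 averaged under the table median.

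When the fit included the Gapdh and Actb differences between transcript ends, the slope of Ltbp3 was 0.46 ± 0.07 (SE, adjusted p = 0.0124), and that of Smad3 0.26 ± 0.07 (SE, adjusted p = 0.13). Without both arrays of narrow spread the slope was 0.39 ± 0.11 for Ltbp3 (SE, adjusted p = 0.147) and 0.22 ± 0.07 for Smad3 (SE, adjusted p = 0.166). Over all 27 alternatives the slope of Ltbp3 stayed between 0.37 and 0.53 and passed in 21, with adjusted p from 0.00694 to 0.202. That of Smad3 stayed between 0.07 and 0.34 and passed in 15, with adjusted p from 0.0277 to 0.311.

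**Figure D5:**
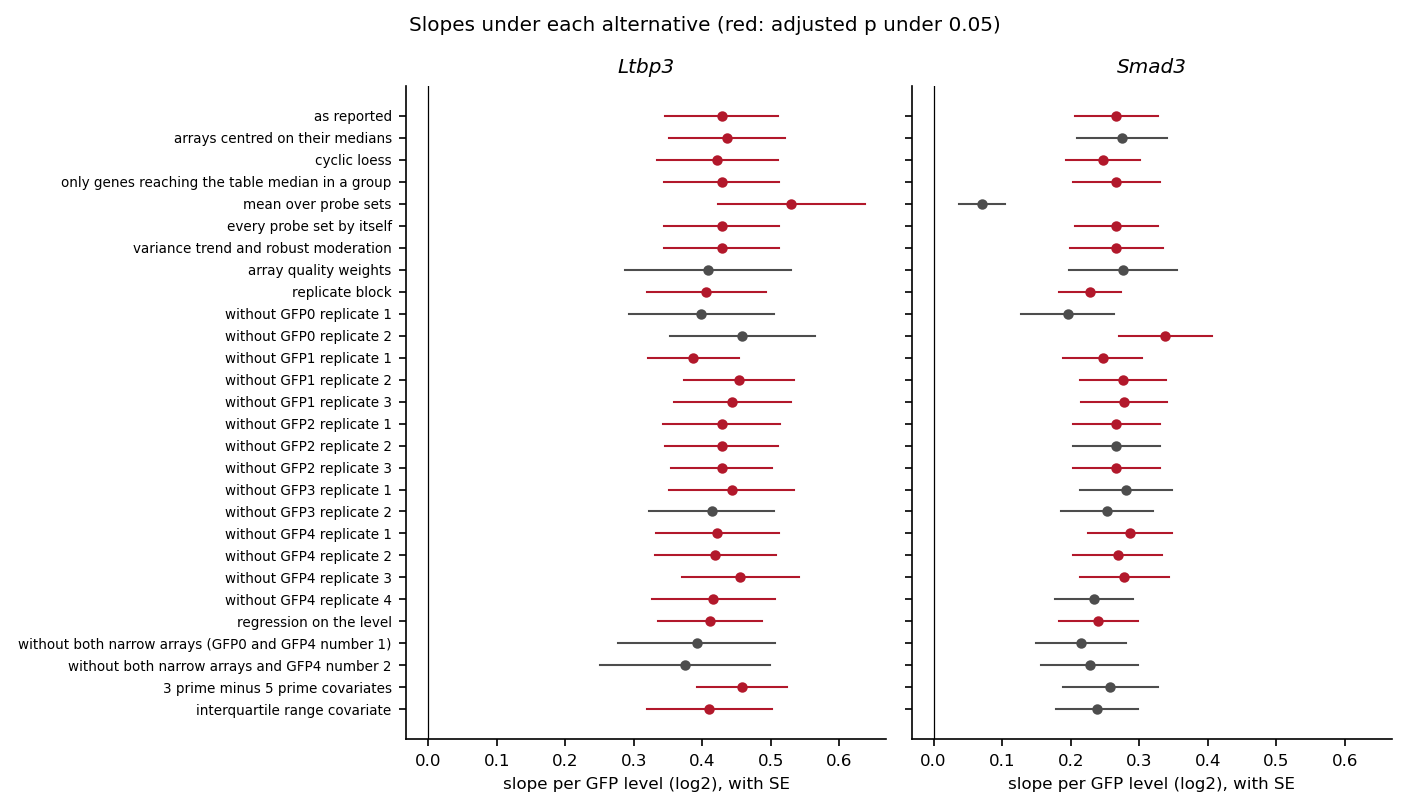
Slopes per GFP level of Ltbp3 and Smad3 (x axes, log2, with SE) as reported and under each of 27 alternatives (y axis). Red points have an adjusted p under 0.05. All slopes are positive, and the lowest of Smad3, 0.07, is the mean over its probe sets.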

How the data were processed

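The authors deposited log2 expression per probe set, in 1 column for each array. The authors' tools were GCOS, affy and RMA per the submitters' processing notes, with no versions. Detection calls do not come with the values, and the build is not given in the sources used here. The members and lists were chosen with earlier results of these data known.

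Of 45101 probe sets, 34958 name 1 gene symbol, 932 several and 9211 none. The brightest probe set by the mean over 14 arrays stood for a gene, which gave 18194 genes. Group means over the 14 arrays were estimated with limma (version 3.58.1, under R 4.3.3), whose moderated variances had 9 residual plus 3.995 prior degrees of freedom. Contrasts were the slope with equal weight per level, GFP4 against GFP0 and GFP1, the 4 steps, any difference and the departure from a line. Tests were two-sided, adjusted over all genes (threshold 0.05), and the fit was tested on simulated data. All members were named, and, in each pathway list, genes past the slope or GFP4 against GFP0 test and the highest and lowest slope among the rest. Cell marker genes are named where they passed, and Gata2, Gp1bb and Vwf are named for their slopes. Figures used matplotlib 3.10.9.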

Additional observations from a re-analysis of the deposited data

Results flagged for a closer look

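Ltbp3 in GFP4 had a lone array. Replicate 3 measured 11.68, while the other 3 lay between 12.19 and 12.27, and the gap to the nearest was 0.861 of the range of the 4, above the critical value of Dixon's test for 4 values. Chance marks about 1 in 20 groups, and 10 members were looked at. Without that array the slope of Ltbp3 was 0.46 (limma, adjusted p = 0.0216).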

How the results depend on the processing

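With all alternatives planned, the count of members past the slope test, 2 as reported, was 1 with arrays centred on their medians, with the mean over probe sets, with the 3 prime and 5 prime differences as covariates and with the interquartile range as a covariate, each time Ltbp3. It was 0 with array quality weights, without both narrow arrays, and without these and GFP4 replicate 2, and 0 to 2 with any single array left out. The count for GFP4 against GFP0, 1 as reported, was 0 with quality weights, without both narrow arrays, without these and GFP4 replicate 2, and with the interquartile range covariate, and ran from 0 to 1 without single arrays. For GFP4 against GFP1 it ran from 0 to 2. The counts for any difference, a departure from a line and the single steps were 0 under all 26 alternatives run. Among other pathway genes the slope count of 4 was 2 with quality weights and with the 3 prime and 5 prime covariates. It was 3, with Cdkn1a lost, without both narrow arrays and without these and GFP4 replicate 2. It was 6 with the mean over probe sets (Crebbp and Eng added), and 3 to 5 without single arrays. Without GFP0 replicate 2 Tgif2 passed and Inha did not, and without GFP3 replicate 1 Bmp4 passed and Cdkn1a did not. The causes were not tested.

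Only 9 of 23 same-numbered pairs of arrays had deviations from their group means that correlated above 0.1. Correlations ran from -0.258 to 0.576, the highest in GFP1 and GFP2 replicate 3 and next in GFP0 and GFP4 replicate 1 (0.531). In a group of 2 arrays the deviations mirror each other, so the pairs are not all separate. These correlations cannot decide whether the numbers pair the samples, and the main fit did not use the numbers. With the replicate block 2 members passed the slope test and 0 the GFP4 against GFP0 test (Ltbp3 1.65, limma adjusted p = 0.128). Over all genes the block moved the slope calls from 609 to 337 and those of GFP4 against GFP0 from 306 to 67.

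Signs turned only in values that did not pass. The slope of Tgfbr1 was -0.018 with the mean over probe sets, -0.017 with quality weights, -0.038 without both narrow arrays, -0.038 without these and GFP4 replicate 2, -0.026 with the 3 prime and 5 prime covariates and -0.031 with the interquartile range covariate. Without single arrays it ran from -0.031 to 0.072, and its GFP4 to GFP0 difference from -0.24 to 0.15. Smad2 ran from -0.13 to 0.0026 in slope and from -0.56 to 0.083 in that difference. The difference was -0.0035 for Tgfbr2 without the narrow arrays and GFP4 replicate 2, and -0.030 for Bmpr1a with the mean over probe sets. With 2 to 4 arrays a level, the members whose arrays of one level differed most were Bmpr2 (residual SD 0.65), Smad4 (0.63) and Tgfbr1 (0.63).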
